A study of Mus musculus with 28 samples.

Results

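This account covers 10 genes of the matrix metalloproteinase (MMP) system in macrophages sorted from the mouse pancreas: 7 MMP genes (Mmp2, Mmp8, Mmp9, Mmp12, Mmp13, Mmp14 and Mmp19) and 3 genes of tissue inhibitors of metalloproteinases (Timp1, Timp2 and Timp3). They were taken by gene symbol from a deposited table of 25301 genes, and all 10 were matched. The study collected macrophages by fluorescence-activated cell sorting during recovery from acute pancreatitis (AP) set off by caerulein, a cholecystokinin analogue that overstimulates acinar cells, and asked how lactate bears on repair of the pancreas. Transcript levels were measured by RNA sequencing of 28 libraries from wild-type C57BL/6J mice. The groups were NC (3 libraries), D0, day 0 of the model (5 libraries), D1 AP+Lac and D1 AP+PBS, day 1 with lactate or with phosphate-buffered saline (6 libraries each), and D3 AP+Lac and D3 AP+PBS, day 3 with lactate or saline (4 libraries each). The labels do not spell out NC, and the sources used here give neither the animals' age, the lactate dose nor the sorting markers. All groups share the strain and genotype.

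MMPs are zinc-dependent endopeptidases, mostly secreted as inactive pro forms, that cut collagens, gelatin, elastin, basement membrane proteins and many cytokines and receptors. TIMPs bind the active site of MMPs and block it, and TIMP2 also bridges MMP14 at the cell surface to the pro form of MMP2, which MMP14 then activates. In the injured pancreas macrophages and stellate cells are both known sources of these proteins, and the balance between them shapes how scar matrix is laid down and removed.

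Mmp13, Mmp12 and Mmp8 lie close together on mouse chromosome 9, and at day 0 they did not move in 1 direction. Their promoter windows, and that of the X-linked Timp1, are shown because these 4 genes had the highest and lowest fold changes at day 0. RefSeq promoter windows on GRCm38.p6 (250 bases before to 50 bases after a start) were matched for 7 of the 10 members: Mmp8, Mmp12, Mmp13, Mmp14, Timp1, Timp2 and Timp3. Each is printed 5′ to 3′ on the gene's strand, and capitals mark matches to the letters TGANTCA (the core of AP-1 sites) or TATAAA (the TATA box), searched on both strands.
Mmp13, chr9:7272264-7272563, plus strand: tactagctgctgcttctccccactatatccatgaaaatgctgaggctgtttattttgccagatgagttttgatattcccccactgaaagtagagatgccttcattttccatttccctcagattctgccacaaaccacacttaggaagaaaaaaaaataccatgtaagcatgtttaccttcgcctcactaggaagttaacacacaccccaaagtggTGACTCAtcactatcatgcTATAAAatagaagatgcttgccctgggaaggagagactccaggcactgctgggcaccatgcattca
Mmp12, second annotated start, chr9:7347124-7347423, plus strand: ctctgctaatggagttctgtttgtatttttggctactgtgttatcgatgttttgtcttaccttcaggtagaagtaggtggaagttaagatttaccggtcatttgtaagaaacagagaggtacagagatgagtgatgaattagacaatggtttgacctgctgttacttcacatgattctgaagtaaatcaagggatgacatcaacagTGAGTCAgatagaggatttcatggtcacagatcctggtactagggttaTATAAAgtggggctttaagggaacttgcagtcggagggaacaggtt
Mmp8, chr9:7558179-7558478, plus strand: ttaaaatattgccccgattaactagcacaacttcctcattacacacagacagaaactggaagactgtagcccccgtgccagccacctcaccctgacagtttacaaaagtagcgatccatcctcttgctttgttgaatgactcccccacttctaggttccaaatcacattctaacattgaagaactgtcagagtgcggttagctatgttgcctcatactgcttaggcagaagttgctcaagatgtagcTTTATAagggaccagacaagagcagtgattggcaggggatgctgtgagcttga
Timp1, chrX:20869916-20870215, plus strand: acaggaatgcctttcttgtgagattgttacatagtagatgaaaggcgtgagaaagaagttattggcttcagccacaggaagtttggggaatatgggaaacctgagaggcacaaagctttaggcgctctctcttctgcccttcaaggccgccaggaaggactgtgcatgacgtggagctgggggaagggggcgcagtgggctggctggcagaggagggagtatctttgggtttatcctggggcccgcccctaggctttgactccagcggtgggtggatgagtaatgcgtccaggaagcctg
The Mmp13 window held TGACTCA beginning 35 bases before the start and TATAAA beginning 16 bases before it, with no overlap between them. The second Mmp12 window held TGAGTCA beginning 44 bases before the start, and TATAAA just past the start. In the Mmp8 window the TATA letters were found on the other strand, 3 bases before the start, and TGANTCA was not found. Neither motif was found in the windows of Timp1, Timp2, Timp3, Mmp14 or the first Mmp12 start. Of 32851 promoter windows of the same length, 7.81% held TGANTCA, 13.6% held TATAAA and 1.54% held both. These are matches of letters and nothing was measured at these positions.

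Levels are deposited FPKM (fragment counts scaled by transcript length and by library depth), which are per length and so can be compared between genes. Between 33273303 and 41060490 fragments per library could be recovered from them. All 12 macrophage markers examined averaged at least 1 FPKM in every group, led by Lyz2. Markers of other cells were present too: the 12 acinar markers summed to 6103 to 9858 FPKM in NC, 360 to 685 FPKM in D0 and 2385 to 17480 FPKM in D3 AP+PBS. At day 1 the libraries numbered 5 and 6 of both arms stood apart, with fibroblast and stellate cell markers (13 genes) summing to 50.6 and 65.4 FPKM with lactate and 77.1 and 68.1 FPKM with PBS, against 201.9 to 526.6 and 202.6 to 365.3 FPKM in those numbered 1 to 4. Day 1 results are therefore also given over libraries 1 to 4, a choice made after the values were seen. The labels do not say that libraries came from separate animals, so p-values measure only the spread between these libraries.

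The first question was how the MMP and TIMP genes of pancreatic macrophages at day 0 differed from NC. At D0, 4 of the 10 genes rose (Mmp8, Timp1, Mmp19 and Mmp14) and 5 fell (Mmp13, Mmp12, Timp2, Mmp9 and Timp3), while Mmp2 did not pass the test. The test was limma on log2(FPKM + 1) over 11960 genes, with Benjamini-Hochberg adjustment and a threshold of 0.05. In this comparison 61.1% of all genes tested passed, 19.7% higher and 41.4% lower in D0, so a large share of calls is not particular to these genes. The median log2 fold change was -1.09 over the members and -0.22 over all genes tested, and with median-ratio scaling the median of all genes was 0.03. That scaling turned the split over all genes to 4039 higher and 3530 lower, against 2361 higher and 4948 lower as deposited, and the 9 member calls held under it.

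**Figure D1:**
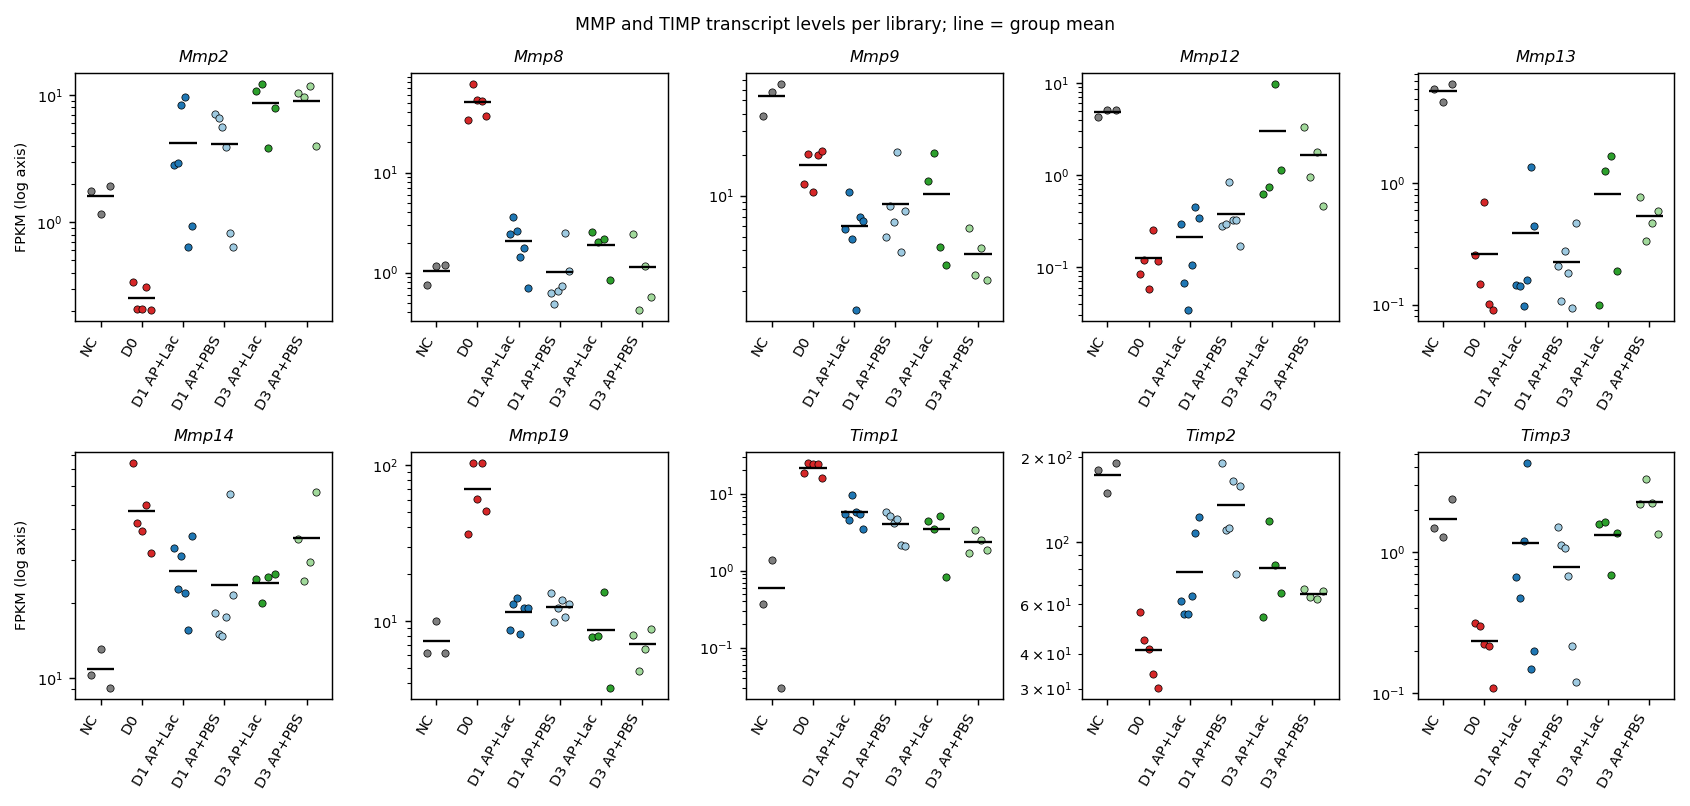
FPKM of the 10 genes in each of the 28 libraries on a log axis, with 1 point per library and a line at the group mean. In D0 all 5 libraries lie above all other libraries for Mmp8, Mmp19 and Timp1, and all 3 NC libraries lie above all others for Mmp9 and Mmp13.

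The 2 collagenases moved in opposite directions at day 0. Mmp8 (NCBI Gene ID 17394), known as neutrophil collagenase, had 33.8, 76.0, 52.6, 52.4 and 36.8 FPKM in the D0 libraries, against 0.746, 1.18 and 1.20 FPKM in NC. The groups did not overlap, and the D0 mean of 50.3 ± 16.8 (SD, n = 5) was 48.4-fold the NC mean of 1.04 ± 0.255 (SD, n = 3), with a log2 fold change of 4.60 (SE 0.32, limma adjusted p = 1.5e-11). Mmp13 (17386), the collagenase best known from cartilage, bone and liver macrophages, had 0.258, 0.148, 0.697, 0.101 and 0.0911 FPKM in D0, against 6.05, 4.67 and 6.54 FPKM in NC. Every D0 library was thus far below the lowest NC library, and the log2 fold change was -2.43 (SE 0.25, limma adjusted p = 1.1e-08). With a pseudocount of 0.1 in place of 1 the Mmp13 fold change was -4.24, since adding 1 compresses levels this low.

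Mmp8 did not move alone. The 12 neutrophil markers, led by S100a9, summed to 209.5 to 674.5 FPKM in D0 and 61.7 to 162.8 FPKM in NC, with 6 of the 12 averaging at least 1 FPKM in each group and none at 0 in all libraries of a group. Of the 9 that were tested, 4 were higher in D0 and 0 lower (19.7% and 41.4% over all genes), with a median log2 fold change of 1.23. S100a9 averaged 209.4 FPKM in D0 and 42.8 FPKM in NC, and the granulocyte surface gene Ly6g was at most 0.318 FPKM in any D0 library. The D0 library with the lowest neutrophil sum (209.5 FPKM) held 52.6 FPKM of Mmp8. Outside day 0, a D1 AP+Lac library with a neutrophil sum of 551.9 FPKM held 3.61 FPKM of Mmp8. The 9 monocyte markers also stood at 4141 to 5663 FPKM in D0 against 829.2 to 994.6 FPKM in NC. Of these 9, 8 were higher in D0 and 0 lower, with a median log2 fold change of 2.52. The part of either cell type in the rise of Mmp8 was not tested. In bulk RNA, fewer cells of a type and less RNA per cell cannot be told apart.

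Both gelatinases, which digest denatured collagen and basement membrane collagen, were lower in mean at day 0, and 1 of them passed the test. Mmp9 (17395), gelatinase B, had 12.2, 20.1, 10.6, 19.9 and 21.3 FPKM in D0, against 38.2, 58.0 and 65.4 FPKM in NC, with no overlap. The log2 fold change of Mmp9 was -1.64 (SE 0.49, limma adjusted p = 0.0060). Neutrophils are also known to store the Mmp9 product, and their part in these levels was not tested. Mmp2 (17390), gelatinase A, a product of fibroblasts and stellate cells in many tissues, had 0.339, 0.209, 0.207, 0.307 and 0.205 FPKM in D0, against 1.75, 1.16 and 1.94 FPKM in NC. The ranges did not overlap and the NC mean was 6.39-fold the D0 mean, yet the log2 fold change of -1.05 (SE 0.55) did not pass (limma adjusted p = 0.10). Adding 1 compresses levels this low, so the result does not show that Mmp2 was unchanged.

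Among the remaining MMPs, Mmp12 was lower and Mmp14 and Mmp19 were higher at day 0. Mmp12 (17381), macrophage elastase, had 0.0850, 0.118, 0.0585, 0.254 and 0.116 FPKM in D0, that is 9 to 39 fragments per library, against 4.30, 5.11 and 5.02 FPKM in NC, or 594 to 733 fragments. The NC mean was 38-fold the D0 mean, and the log2 fold change was -2.37 (SE 0.39, limma adjusted p = 1.3e-05), or -4.49 with a pseudocount of 0.1. Mmp14 (17387), the membrane-anchored activator of the Mmp2 product, had 74.2, 42.4, 39.3, 49.9 and 31.9 FPKM in D0, against 10.3, 13.1 and 9.11 FPKM in NC. It rose by a log2 fold change of 1.99 (SE 0.33, limma adjusted p = 2.0e-05), without overlap. Mmp19 (58223), a secreted enzyme that cuts basement membrane proteins, had 36.4, 103.9, 61.0, 102.9 and 50.8 FPKM in D0, against 6.22, 10.04 and 6.18 FPKM in NC. It rose by 3.00 on the log2 scale (SE 0.31, limma adjusted p = 1.7e-08), and at 71.0 FPKM it was the highest of the 10 genes in D0 by mean level.

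The inhibitors also split at day 0. Timp1 (21857), a broad inhibitor and cytokine-induced gene, had 18.5, 25.2, 24.6, 24.4 and 16.2 FPKM in D0, against 0.368, 1.36 and 0.0300 FPKM in NC. In NC these values rest on 1 to 46 fragments per library, and every D0 library had at least 590. The log2 fold change was 3.91 (SE 0.34, limma adjusted p = 6.8e-10). Timp2 (21858), the inhibitor with a part in Mmp2 activation, was the most abundant of the 10 genes in NC, with 180.0, 149.1 and 191.4 FPKM, and had 56.2, 44.5, 41.6, 33.8 and 30.2 FPKM in D0. The highest D0 library was below the lowest NC library, and the log2 fold change was -2.07 (SE 0.28, limma adjusted p = 1.2e-06). Timp3 (21859), which binds to the matrix and also inhibits shedding enzymes of the ADAM family, had 0.109 to 0.316 FPKM in D0 and 1.28 to 2.40 FPKM in NC. Its log2 fold change was -1.13 (SE 0.34, limma adjusted p = 0.0065), and -2.45 with a pseudocount of 0.1. The call on Timp3 was lost with quantile normalization (-0.48, limma adjusted p = 0.18).

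Taken as sums of FPKM, the 7 MMP genes exceeded the 3 TIMP genes in every D0 library and fell short of them in every NC library. In D0 the MMP genes summed to 186.3 ± 45.1 and the TIMP genes to 63.3 ± 11.2 FPKM (SD, n = 5), a ratio of 2.09 to 3.87 per library. In NC the MMP genes summed to 85.4 ± 15.5 and the TIMP genes to 175.8 ± 21.7 FPKM (SD, n = 3), a ratio of 0.371 to 0.615. Ratios averaged 0.665 with lactate and 0.413 with PBS at day 1, and 0.715 with lactate and 0.855 with PBS at day 3. Mmp14 over Timp2, the pair that acts on the Mmp2 product, averaged 1.15 ± 0.238 in D0 (SD, n = 5) and 0.0643 ± 0.0211 in NC (SD, n = 3). No test was run on these sums, because the genes were chosen with earlier results known and Timp2, Mmp9, Mmp14 and Mmp19 make up much of them. In D0 Mmp8 also does, at a mean of 50.3 FPKM.

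**Figure D2:**
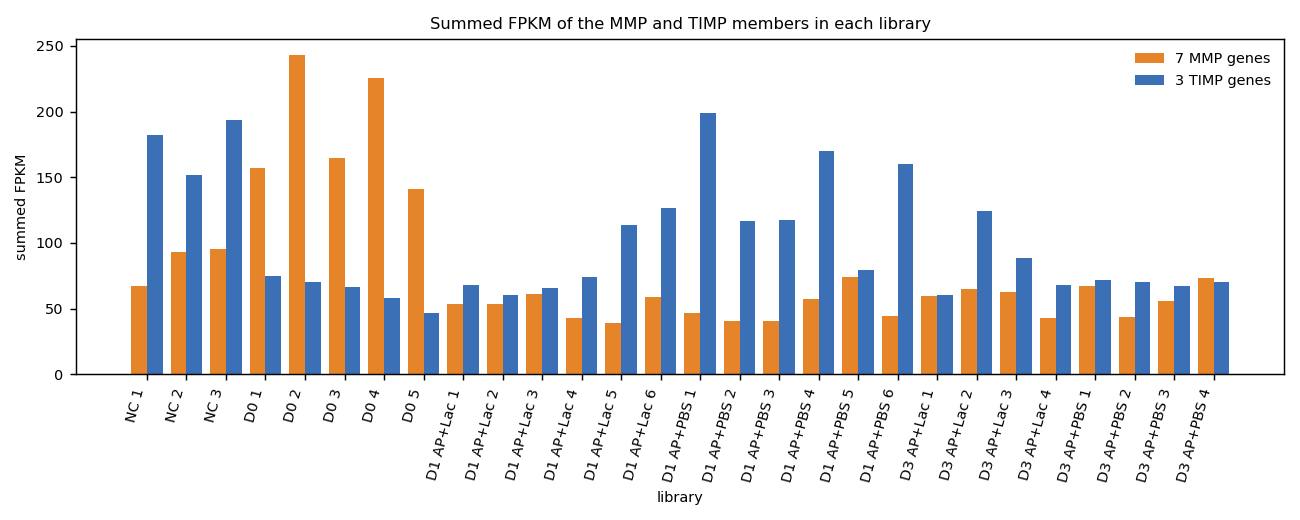
Summed FPKM of the 7 MMP genes (orange) and the 3 TIMP genes (blue) in each of the 28 libraries. The MMP bar is the taller in all 5 D0 libraries, where the ratio is 2.09 to 3.87, and the TIMP bar is the taller in all 3 NC libraries.

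The next comparison followed the vehicle arm from day 0 into the first day of recovery. At D1 AP+PBS, 7 of the 10 genes differed from D0 where 62.9% of all genes did (43% higher, 19.8% lower): Mmp2 and Timp2 rose, and Mmp8, Mmp19, Timp1, Mmp14 and Mmp9 fell. The D0 libraries are the same as in the comparison with NC, so the 2 sets of fold changes share them. The median log2 fold change was -0.52 over the members and 0.19 over all genes tested. Median-ratio scaling changed the split over all genes to 3625 higher and 4263 lower, against 5147 higher and 2374 lower as deposited.

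Mmp8 and Mmp19 had the largest falls. Mmp8 stood at 0.488 to 2.48 FPKM (median 0.693) in D1 AP+PBS, below every D0 library, with a log2 fold change of -4.68 (SE 0.26, limma adjusted p = 9.9e-13). Mmp19 stood at 9.79 to 15.02 FPKM (median 12.5), with a log2 fold change of -2.33 (SE 0.26, limma adjusted p = 5.8e-08). The inhibitor Timp1 had 2.11 to 5.84 FPKM (median 4.42) and a log2 fold change of -2.23 (SE 0.28, limma adjusted p = 3.4e-07). The ranges of Mmp8, Mmp19 and Timp1 did not overlap between D1 AP+PBS and D0, and the share of all genes without overlap was not counted. Mmp14 had 14.7 to 55.6 FPKM (median 17.9), and its highest library, number 5, was above 4 of the 5 D0 libraries. Its log2 fold change was -1.08 (SE 0.28, limma adjusted p = 0.0018). Mmp9 had 3.84 to 20.9 FPKM (median 7.08) and overlapped D0, with a log2 fold change of -1.01 (SE 0.41, limma adjusted p = 0.034). The Mmp9 call was lost without any 1 of D0 libraries 2, 4 and 5 or D1 AP+PBS libraries 1, 3 and 5 (-0.97 to -0.85, limma adjusted p 0.057 to 0.080), over day 1 libraries 1 to 4 (-0.82, limma adjusted p = 0.13) and without a filter on low values (limma adjusted p = 0.071).

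Timp2 and Mmp2 moved the other way. Timp2 had 191.4, 111, 112, 165, 76.8 and 158 FPKM in D1 AP+PBS, every library above the highest D0 value of 56.2. It rose by a log2 fold change of 1.66 (SE 0.24, limma adjusted p = 1.9e-06). Mmp2 had 7.14, 6.61, 5.62, 3.92, 0.819 and 0.638 FPKM in D1 AP+PBS, all above D0, with libraries 5 and 6 far below the other 4. The log2 fold change of Mmp2 was 1.77 (SE 0.46, limma adjusted p = 0.0019), or 3.11 with a pseudocount of 0.1. Libraries 5 and 6 are those with the lowest fibroblast and stellate cell marker sums in the arm. The matrix-bound inhibitor Timp3 showed the same division, with 0.681 to 1.52 FPKM in libraries 1 to 4 and 0.216 and 0.120 in libraries 5 and 6. Over all 6 its log2 fold change of 0.48 (SE 0.28) did not pass (limma adjusted p = 0.14), over libraries 1 to 4 it was 0.76 (limma adjusted p = 0.015), and with quantile normalization it was -0.033. Mmp12 (0.27, SE 0.32) and Mmp13 (-0.03, SE 0.21) stayed under 1 FPKM in every D0 and D1 AP+PBS library.

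Marker sums of fibroblasts and stellate cells moved with Mmp2, and less evenly with Timp3. The 13 markers, among them Col1a1, Col3a1, Dcn and Lum, summed to 85.9 to 100.6 FPKM in NC, 21.8 to 39.6 FPKM in D0 and 200.7 to 363.6 FPKM in D3 AP+PBS. In these groups 10, 6 and 10 of the 13 averaged at least 1 FPKM, and none was at 0 in all libraries of a group. The highest by mean was Thy1 in NC (30 FPKM) and D3 AP+PBS (83.7 FPKM), and Pi16 in D0 (9.39 FPKM). Of the 13, 1 was higher and 4 lower in D0 than in NC (19.7% and 41.4% over all genes). In D1 AP+PBS 10 were higher and 1 lower than in D0 (43% and 19.8% over all genes). Mmp2 was lowest in D0, where these sums were lowest, its highest library (12.1 FPKM, D3 AP+Lac) had a sum of 429.3 FPKM, and the genes most like it were the collagen genes Col6a2 and Col6a1 and the proteoglycan gene Lum (Pearson r 0.976, 0.976 and 0.974). Timp3 did not keep this order, with 1.28 to 2.40 FPKM in NC and 0.681 to 1.52 FPKM in D1 AP+PBS libraries 1 to 4, whose fibroblast and stellate cell sums were the higher. The 10 endothelial markers summed to 28.1 to 40.8 FPKM in NC, 9.77 to 17.2 FPKM in D0, 17.2 to 23.6 FPKM in D1 AP+PBS libraries 1 to 4 and 38.5 to 61.6 FPKM in D3 AP+PBS. The part of RNA from either cell type in the levels of Mmp2 and Timp3 was not tested.

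**Figure D3:**
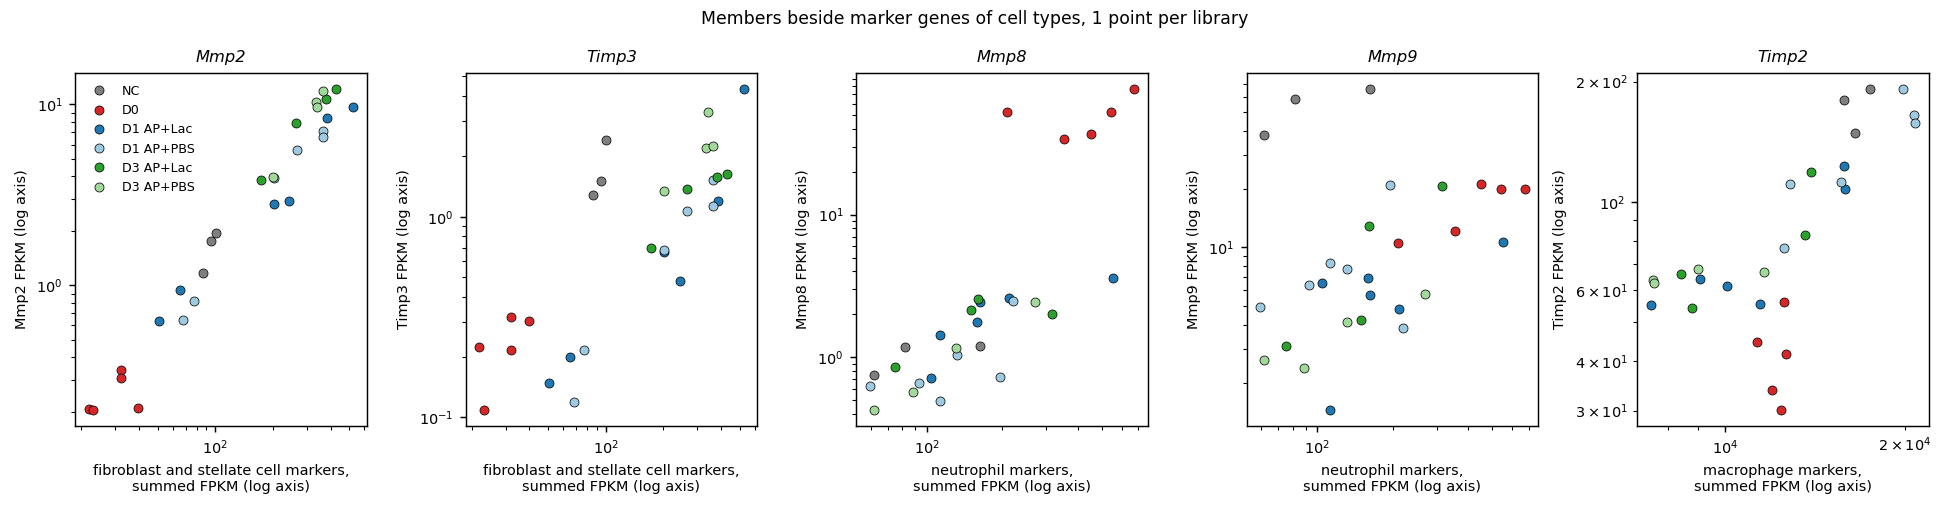
FPKM of Mmp2, Timp3, Mmp8, Mmp9 and Timp2 (vertical, log axis) against summed FPKM of a marker list in the same library (horizontal, log axis), with 1 point per library coloured by group. Mmp2 is higher where the fibroblast and stellate cell markers are higher, and Mmp8 is at least 33.8 FPKM in the 5 D0 libraries and at most 3.61 FPKM in every other library.

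From day 1 to day 3 in the vehicle arm fewer genes moved than from day 0 to day 1, among the members and over the whole table. At D3 AP+PBS, 3 of the 10 genes differed from D1 AP+PBS where 34.3% of all genes did (21.5% higher, 12.8% lower): Timp3 rose, and Timp2 and Mmp19 fell. Median-ratio scaling changed the split over all genes to 1662 higher and 2186 lower, against 2569 higher and 1534 lower as deposited. Timp2 had 67.8, 63.9, 62.8 and 66.9 FPKM at D3 AP+PBS, all below the lowest D1 AP+PBS library (76.8), with a log2 fold change of -0.98 (SE 0.25, limma adjusted p = 0.0049). The 12 macrophage markers moved in the same direction, at 7559 to 11590 FPKM in D3 AP+PBS against 12520 to 20830 FPKM in D1 AP+PBS, with 11 of the 12 passing the test as lower, and their part in the fall of Timp2 was not tested. Timp3 had 2.19, 3.34, 2.25 and 1.35 FPKM at D3 AP+PBS, with a log2 fold change of 0.90 (SE 0.30, limma adjusted p = 0.024), or 1.68 with a pseudocount of 0.1. Mmp19 had 8.12, 4.77, 6.56 and 8.85 FPKM, all below the D1 AP+PBS range, with a log2 fold change of -0.74 (SE 0.28, limma adjusted p = 0.041).

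These smaller calls depended on single libraries. The Timp3 call was lost without D1 AP+PBS library 6 or D3 AP+PBS library 1, 2 or 3 (0.76 to 0.91, limma adjusted p 0.0505 to 0.089), and over day 1 libraries 1 to 4 (0.63, limma adjusted p = 0.073). The Mmp19 call was lost without D1 AP+PBS library 1, 3, 4 or 6 or D3 AP+PBS library 1, 2 or 3 (-0.81 to -0.59, limma adjusted p 0.054 to 0.15), over day 1 libraries 1 to 4 (-0.77, limma adjusted p = 0.062) and without a filter on low values (limma adjusted p = 0.075). Other members were gained by leaving out a library: Mmp14 without D1 AP+PBS library 5 (0.98, limma adjusted p = 0.0025) or D3 AP+PBS library 2 (0.87, limma adjusted p = 0.046), Mmp12 without D1 AP+PBS library 3 (0.92, limma adjusted p = 0.048) or D3 AP+PBS library 4 (1.08, limma adjusted p = 0.025), and Mmp2 without D1 AP+PBS library 2 (1.301, limma adjusted p = 0.046) or D3 AP+PBS library 4 (1.44, limma adjusted p = 0.038). Over day 1 libraries 1 to 4, a restriction chosen after the values were seen, 41.4% of all genes passed. Mmp14 was then higher at day 3 (1.06, limma adjusted p = 8.4e-04) and Timp1 was lower (-0.85, limma adjusted p = 0.028).

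By day 3 the vehicle arm could be set against NC. At D3 AP+PBS, 7 of the 10 genes differed from NC where 21.2% of all genes did (10.3% higher, 10.9% lower): Mmp2, Mmp14 and Timp1 were higher, and Mmp9, Mmp13, Timp2 and Mmp12 were lower. With median-ratio scaling 759 genes were higher and 1590 lower over the whole table, against 1236 higher and 1299 lower as deposited. Mmp9 had 5.78, 2.62, 4.13 and 2.38 FPKM at D3 AP+PBS, against 38.2 to 65.4 FPKM in NC, with a log2 fold change of -3.56 (SE 0.52, limma adjusted p = 2.1e-05). Mmp13 had 0.775, 0.332, 0.467 and 0.591 FPKM at D3 AP+PBS, against at least 4.67 FPKM in NC, and a log2 fold change of -2.13 (SE 0.26, limma adjusted p = 1.9e-06), or -3.22 with a pseudocount of 0.1. Both were thus still far below every NC library. Mmp14 had 36.6, 24.6, 29.6 and 56.3 FPKM, each above the NC range, with a log2 fold change of 1.62 (SE 0.35, limma adjusted p = 0.0018). Timp2 had a log2 fold change of -1.39 (SE 0.30, limma adjusted p = 0.0016), while Mmp8 (-0.01, SE 0.33), Mmp19 (-0.07, SE 0.33) and Timp3 (0.25, SE 0.36) did not pass.

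The calls on Mmp2, Timp1 and Mmp12 at day 3 were the least firm. Mmp2 had 10.3, 9.65, 11.8 and 3.95 FPKM at D3 AP+PBS, all above NC, with a log2 fold change of 1.85 (SE 0.58, limma adjusted p = 0.025). Its call was lost without any 1 NC library or D3 AP+PBS library 1, 2 or 3 (1.70 to 1.94, limma adjusted p 0.054 to 0.079). Timp1 had 1.69, 3.42, 2.50 and 1.83 FPKM, above the NC range, with a log2 fold change of 1.14 (SE 0.35, limma adjusted p = 0.023), or 2.41 with a pseudocount of 0.1. Its call was lost without NC library 1 or 3 or D3 AP+PBS library 2 (0.88 to 1.08, limma adjusted p 0.072 to 0.155). Mmp12 had 3.30, 0.964, 1.80 and 0.461 FPKM, each below the NC range, with a log2 fold change of -1.26 (SE 0.40, limma adjusted p = 0.029). Its call was lost without any 1 NC library or D3 AP+PBS library 2 or 4 (-1.32 to -1.01, limma adjusted p 0.058 to 0.095), without a filter on low values (limma adjusted p = 0.051) and with a pseudocount of 0.1 (-1.81, limma adjusted p = 0.061).

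**Figure D4:**
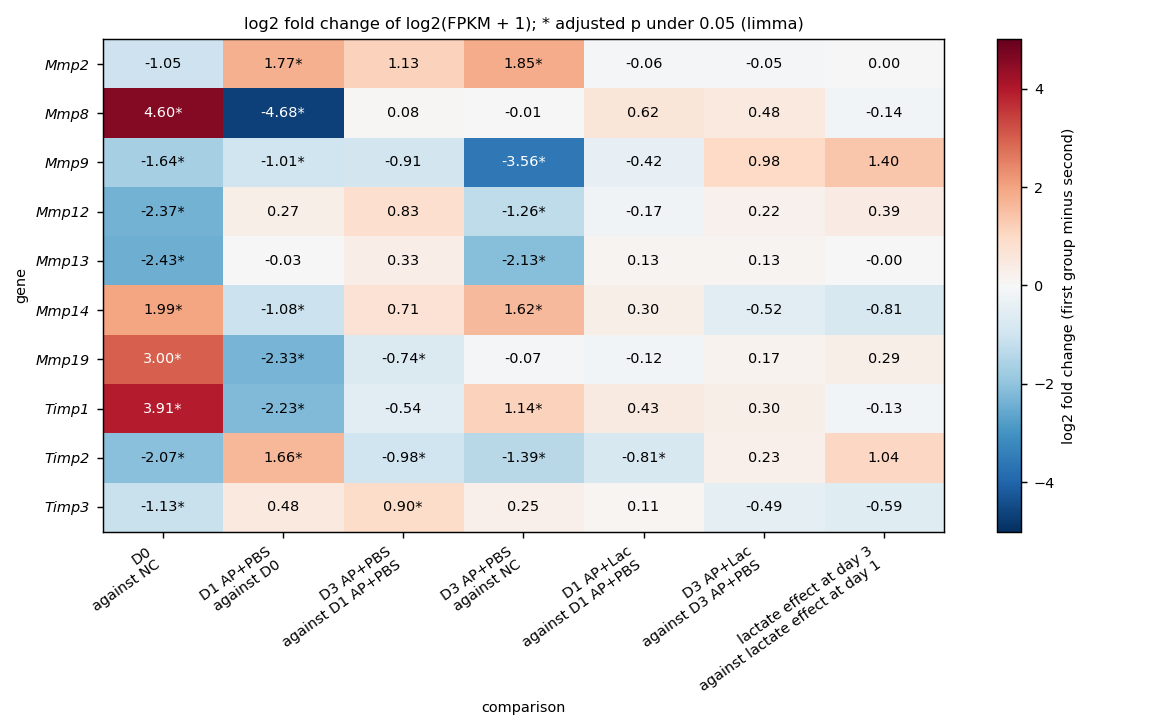
Log2 fold changes of the 10 genes (rows) in 7 comparisons (columns), each the first group minus the second on the log2(FPKM + 1) scale; red is higher in the first group, blue is lower, and an asterisk marks a limma adjusted p under 0.05. The first 4 columns hold 26 of the 27 marked values, and the lactate columns hold 1, Timp2 at day 1.

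The study's main question concerned lactate. At day 1, 1 of the 10 genes differed between lactate and PBS where 9.72% of all genes did (5.16% higher, 4.56% lower): Timp2, which was lower with lactate. Timp2 had 61.6, 55.4, 55.1, 64.2, 108 and 123 FPKM in D1 AP+Lac, against 191.4, 111, 112, 165, 76.8 and 158 FPKM in D1 AP+PBS. Libraries 1 to 4 did not overlap between the arms, while library 5 of the PBS arm lay below libraries 5 and 6 of the lactate arm. The means were 77.8 ± 29.6 with lactate and 135.6 ± 42.7 with PBS (SD, n = 6 each), and the log2 fold change was -0.81 (SE 0.22, limma adjusted p = 0.024). The call was lost without any 1 of lactate libraries 1 to 4 or PBS libraries 1, 4 and 6 (-0.77 to -0.69, limma adjusted p 0.055 to 0.088), with only these 2 arms fitted (limma adjusted p = 0.13) and without a filter on low values (limma adjusted p = 0.059). The share over all genes also moved: with only the 2 arms fitted, limma called 0 of 11960 genes (2282 had an unadjusted p under 0.05), and leaving out 1 library gave 1.60% (PBS library 1) to 19.9% (PBS library 5).

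Macrophage marker sums moved with Timp2 at day 1. Of the 12 markers, 5 were lower with lactate and 0 higher. They summed to 7491 to 15880 FPKM with lactate and 12520 to 20830 FPKM with PBS, and among libraries 1 to 4 to 7491 to 11420 FPKM with lactate and 12810 to 20740 FPKM with PBS. Much of each sum was a single gene, Lyz2, which averaged 7724 FPKM with lactate and 11570 FPKM with PBS. Lactate libraries 5 and 6, which had the highest Timp2 of their arm, also had the highest macrophage sums (15880 and 15780 FPKM), and PBS library 5, with the lowest Timp2 of its arm, had the lowest (12520 FPKM). The 12 T and NK cell markers in the table summed to 246 to 760 FPKM with lactate and 145 to 445 FPKM with PBS. The part of cell composition in the Timp2 difference was not tested.

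The other 9 genes did not pass at day 1 over all libraries. Mmp8 had 2.42, 3.61, 2.60, 1.42, 1.75 and 0.709 FPKM with lactate and 0.631, 0.488, 0.658, 0.728, 2.48 and 1.04 FPKM with PBS. Libraries 1 to 4 did not overlap here either, but library 5 of the PBS arm was above 4 lactate libraries, and the log2 fold change of 0.62 (SE 0.25) had a limma adjusted p of 0.12. The value passed without lactate library 6 (0.78, limma adjusted p = 0.031) or PBS library 5 (0.79, limma adjusted p = 0.023). Both arms were also limited to libraries 1 to 4, a restriction chosen after the values were seen. It left out PBS library 5, whose values ran against the calls that follow, so their p-values are descriptive only. In that fit 3 members were called, where 28.6% of all genes were. Timp2 was lower with lactate (-1.24, SE 0.21, limma adjusted p = 1.9e-04), and Mmp8 (1.08, SE 0.26, limma adjusted p = 0.0040) and Mmp14 (0.69, SE 0.22, limma adjusted p = 0.024) were higher. For Mmp14, libraries 1 to 4 had 22.1 to 33.7 FPKM with lactate and 14.7 to 18.3 FPKM with PBS. PBS library 5 held 55.6 FPKM of it and lactate library 5 held 15.7 FPKM. Neutrophil marker sums in libraries 1 to 4 were 113.1 to 551.9 FPKM with lactate and 59.3 to 195.5 FPKM with PBS, beside the Mmp8 values. Monocyte marker sums in the same libraries were 1814 to 2143 FPKM with lactate and 985.8 to 1283 FPKM with PBS, without overlap, and PBS library 5, high in Mmp8 and Mmp14, stood at 3252 FPKM. Over all 6 libraries an arm, 4 of the 9 monocyte markers were higher and 1 lower with lactate (5.16% and 4.56% over all genes). With only the 2 arms fitted 0 of 11960 genes were called, these markers included. The part of either cell type in these values was not tested.

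At day 3 none of the 10 genes passed the test of lactate against PBS, where 0.376% of all genes did (0.192% higher, 0.184% lower). By limma 0 of the 10 had an unadjusted p under 0.05, as against 2144 of the 11960 genes tested. Timp2 had 54.1, 118.9, 82.6 and 66.0 FPKM with lactate, against 67.8, 63.9, 62.8 and 66.9 FPKM with PBS, which overlap. The lactate effect on Timp2 was 0.23 on the log2 scale (SE 0.27, limma adjusted p = 0.68). Mmp9 had 12.8, 20.6, 4.23 and 3.11 FPKM with lactate and 5.78, 2.62, 4.13 and 2.38 FPKM with PBS, with a log2 fold change of 0.98 (SE 0.48, limma adjusted p = 0.28). The lactate arm thus held both high and low Mmp9 libraries. Mmp12 had 0.616, 0.735, 9.62 and 1.12 FPKM with lactate, so that library 3 decided the mean of 3.02 ± 4.40 (SD, n = 4), against 1.63 ± 1.24 with PBS (SD, n = 4). The other log2 fold changes ran from -0.52 for Mmp14 (SE 0.32) to 0.48 for Mmp8 (SE 0.31), and at these standard errors changes of such size could not be told from none.

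Whether the lactate effect differed between day 3 and day 1 was tested directly. None of the 10 genes passed where 10.7% of all genes did (4.76% higher, 5.94% lower). By limma 2 of the 10 had an unadjusted p under 0.05, as did 3283 of the 11960 genes tested. The 2 members were Timp2, with a difference of 1.04 (SE 0.35, limma adjusted p = 0.058), and Mmp9, with a difference of 1.40 (SE 0.62, limma adjusted p = 0.14). Timp2 passed without lactate library 5 or 6 or PBS library 5 of day 1 or lactate library 1 of day 3 (1.15 to 1.21, limma adjusted p 0.013 to 0.040), and with quantile normalization (1.11, limma adjusted p = 0.044). Over day 1 libraries 1 to 4, a restriction chosen after the values were seen, 28.5% of all genes passed. Timp2 (1.48, limma adjusted p = 8.4e-04) and Mmp14 (-1.21, limma adjusted p = 0.0068) then passed. Mmp14 also passed without PBS library 5 of day 1 alone (-1.09, limma adjusted p = 0.023).

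Set side by side, the 10 genes fell into different orders of level over the 6 groups. Mmp8, Mmp19 and Timp1 were highest in D0, with no library of another group in their D0 range. Mmp14 was highest in D0 by mean and lowest in NC, and its D0 range overlapped those of both D1 arms and of D3 AP+PBS. Mmp9 and Mmp13 were highest in NC with no overlap, and Timp2 and Mmp12 were highest in NC by mean. For Timp2 the D1 AP+PBS range overlapped that of NC, the highest library of each standing at 191.4 FPKM, and for Mmp12, 1 library of D3 AP+Lac (9.62 FPKM) lay above it. Mmp2 and Timp3 were highest at D3 AP+PBS and lowest in D0, and for Mmp2 the groups of days 1 and 3 overlapped each other. The range over all libraries was widest for Timp1 and narrowest for Timp2, whose highest library was 6.34-fold its lowest.

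Genes with the most similar pattern were sought among 7483 tested genes with a mean of at least 5 FPKM, by Pearson correlation of log2(FPKM + 1) over the 28 libraries. These libraries share their groups and their mix of cells, so r describes a common pattern and nothing more. Mmp8 was most like Sfxn5 (r = 0.964), Slc39a14, a zinc and iron transporter (0.961), and Pram1 (0.951). Mmp19 was most like Il4ra, the interleukin 4 receptor alpha chain (0.954), followed by Snx1 (0.948) and Pgd (0.945). Mmp14 was most like Nr1h3, which encodes the oxysterol receptor LXR alpha (0.916), then Spon1 (0.828) and Abr (0.820), and Timp1 was most like the matricellular gene Thbs1 (0.908), Pdpn (0.896) and the cytokine gene Osm (0.889). Mmp13 was most like Lyve1, a hyaluronan receptor found on resident macrophages (0.905), then Itpripl2 (0.902) and Myadm (0.875), and Mmp12 like C4b (0.828), Lpl (0.820) and the lectin gene Mgl2 (0.810). Timp2 was most like Cracr2b (0.966), Scamp5 (0.959) and Serpinb6a (0.957), and Timp3 like Igfbp7 (0.896), the basement membrane collagen gene Col4a1 (0.884) and Pcolce (0.862). Mmp9, with the lowest likeness in its first gene, was most like Kifc3 (0.823), Myo7a (0.820) and Ppp2r5b (0.792).

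Other genes of the system were read from lists. Of 17 further MMP and TIMP genes, 15 were in the table, 7 of them below 1 FPKM in every library, and 4 passed the filter (Mmp7, Mmp23, Mmp25 and Mmp27). Mmp27, a little-studied MMP, averaged 1.87 ± 0.724 FPKM in D0 (SD, n = 5) and 0.0415 ± 0.0255 FPKM in NC (SD, n = 3), with a log2 fold change of 1.43 (SE 0.28, limma adjusted p = 1.3e-04). Mmp23 was lower in D0 than in NC (-0.94, SE 0.19, limma adjusted p = 1.9e-04), a call lost with quantile normalization (-0.29, limma adjusted p = 0.16), and higher in D1 AP+PBS than in D0 (0.70, SE 0.16, limma adjusted p = 5.5e-04), also lost with it (0.19, limma adjusted p = 0.27). Of these 4, 1 differed with lactate at day 1, where 9.72% of all genes did. This was Mmp25, a membrane-anchored enzyme first known from leukocytes, at 10.25 ± 3.96 FPKM with lactate and 3.02 ± 4.28 FPKM with PBS (SD, n = 6 each). Its log2 fold change was 1.83 (SE 0.35, limma adjusted p = 0.0089), with library 5 of the PBS arm at 11.7 FPKM and no other PBS library above 2.33, and limma adjusted p = 0.12 with only the 2 arms fitted. The lactate effect on Mmp25 differed between days (day 3 minus day 1, -2.31, SE 0.55, limma adjusted p = 0.011).

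Among 21 activators, receptors and other inhibitors of MMPs, 17 were tested. In D0, 10 were higher and 2 lower than in NC (19.7% and 41.4% over all genes), led by Thbs1, a matrix protein that binds MMPs (280.9 ± 62.6 FPKM in D0, n = 5, and 8.70 ± 4.73 FPKM in NC, SD, n = 3), and by Lcn2, a lipocalin that forms a complex with the Mmp9 product (91.1 ± 19.4 FPKM in D0 and 1.78 ± 0.738 FPKM in NC). Their log2 fold changes were 4.93 (SE 0.46) and 5.06 (SE 0.49), with limma adjusted p of 2.7e-09 and 5.4e-09. The hyaluronan receptor Cd44 (0.76) and the clearance receptor Lrp1 (1.19) also rose. In D1 AP+PBS, 3 were higher and 9 lower than in D0 (43% and 19.8% over all genes), among them Lcn2 (-4.15), the urokinase gene Plau (-1.69) and Cd44 (-0.93). The list's median log2 fold change was 0.38 in the first comparison and -0.25 in the second. Of the 17, 7 differed between D3 AP+PBS and D1 AP+PBS (2 higher, 5 lower), near the 34.3% over all genes. Between D3 AP+PBS and NC 3 differed (all lower), near the 21.2% over all genes. None of the 17 passed the test of lactate against PBS at day 1 or day 3, where 9.72% and 0.376% of all genes did.

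ADAM and ADAMTS genes, which encode related sheddases and matrix proteases, were split at day 0. Of 13 tested, 4 were higher and 5 lower in D0 than in NC, near the 61.1% over all genes, with a median log2 fold change of -0.26. Adam8, a leukocyte sheddase, averaged 125.5 ± 27.9 FPKM in D0 (SD, n = 5) and 34.1 ± 5.83 FPKM in NC (SD, n = 3), with a log2 fold change of 1.83 (SE 0.19, limma adjusted p = 1.5e-08), while Adam33, Adam19 and Adam23 fell (-2.35, -2.99 and -2.28). In D1 AP+PBS, 5 were higher and 3 lower than in D0, near the 62.9% over all genes, with Adam8 (-2.84) and Adam10 (-0.73) lower and Adam19 (2.01) and Adamts10 (1.43) higher, and a median of 0.35 over the 13. With lactate at day 1, 1 of the 13 was lower, near the 9.72% over all genes: Adam15 (-0.65, SE 0.18, limma adjusted p = 0.023). Its call was lost without lactate library 3 or 4 or PBS library 1 or 4 (-0.59 to -0.53, limma adjusted p 0.065 to 0.080). It was also lost without a filter on low values (limma adjusted p = 0.055) and with only the 2 arms fitted (limma adjusted p = 0.15).

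The substrates of these enzymes were examined as 25 extracellular matrix genes, 24 of them tested. In D0, 2 were higher and 8 lower than in NC, below the 61.1% over all genes, and the higher ones were the proteoglycan gene Vcan (3.94, SE 0.52, limma adjusted p = 6.2e-07) and Fn1, fibronectin (1.14, SE 0.39, limma adjusted p = 0.013). Fn1 was not called without NC library 3 (0.93, limma adjusted p = 0.078). Decorin (Dcn, -3.28) and nidogen (Nid1, -1.94) were lower, and the median over the 24 genes was -0.99. This count depended on the settings, with 17 called at a pseudocount of 0.1, 4 without a filter or with quantile normalization, 6 with median-ratio scaling and 23 with only the 2 groups fitted. In D1 AP+PBS, 19 were higher and 2 lower than in D0 (43% and 19.8% over all genes), with Dcn (3.23) and Nid1 (2.14) higher and again Vcan (-4.15) and Fn1 (-2.14) the lower ones. The median over the 24 genes was 1.49, beside the marker sums of fibroblasts and stellate cells given above. None of the 24 passed the test of lactate against PBS at day 1 or day 3, where 9.72% and 0.376% of all genes did.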

How the data were processed

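RNA was sequenced from 28 libraries of sorted pancreatic macrophages, in 6 groups named in the labels. The deposited table holds FPKM per gene, as the deposited file is named, computed by the authors from their reads before deposit; fastp and R 3.2.0 are listed per the submitters' processing notes, and the aligner, the counter and the genome build were not in the sources used here. FPKM steps gave whole fragments for 100% of values above 0 (tolerance 0.0001), 33273303 to 41060490 per library. No within-group pair of 55 looked like 1 library deposited more than once (lowest chi-square per degree of freedom 24.5).

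Genes with at least 1 FPKM in at least 3 libraries (11960 of 25301) were tested with limma 3.58.1 in R 4.3.3, with trend and robust settings, on log2(FPKM + 1), with 6 group means over all 28 libraries. P-values are two-sided, with Benjamini-Hochberg adjustment over all genes in each of 7 comparisons and a threshold of 0.05. Fold changes on this scale understate changes of low genes. Members and lists were chosen with earlier results of these data known. All members are named, with the 3 genes most like each. Up to 4 called genes of smallest p per list were named for D0 against NC, D1 AP+PBS against D0, lactate at day 1 and the difference between days; the other comparisons give list counts at most. The values of 1 list gene that this rule names are not reported here. Alternatives changed the pseudocount (0.1), the filter, the scaling (median ratio, quantile), the libraries and the block. Tests were tried on simulated data. Tables and figures used Python 3.11.15, pandas 2.3.3, numpy 2.4.6 and matplotlib 3.10.9.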

Additional observations from a re-analysis of the deposited data

Results flagged for a closer look

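Of 50 sets of 1 member in 1 group, 9 held a library far from the others of its group by Dixon's criterion, each time the highest. A chance rate of about 1 in 20 holds for independent, normally distributed values. These sets share libraries and FPKM were not put on a log scale, so the 9 cannot be judged against that rate. Library 5 of D1 AP+PBS was the high one for Mmp14 (55.6 FPKM) and Mmp8 (2.48 FPKM), and among other MMP genes for Mmp25 (11.7 FPKM) and Mmp7 (2.04 FPKM). In the same arm, library 4 was high for Mmp9 (20.9 FPKM) and library 3 for Mmp12 (0.849 FPKM). In D1 AP+Lac, library 5 was high for Mmp13 (1.35 FPKM), library 3 for Timp1 (9.47 FPKM) and library 4 for Timp3 (4.32 FPKM). In D3 AP+Lac, library 3 was high for Mmp12 (9.62 FPKM) and Mmp7 (0.706 FPKM). In D0, library 3 was high for Mmp13 (0.697 FPKM).

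The lactate effect differed between day 3 and day 1, by the limma test of that difference, for 5 genes of the lists. These were 1 of 4 other MMP genes tested and 2 of 17 activators, receptors and other inhibitors. The rest were 1 of 13 ADAM and ADAMTS genes and 1 of 24 matrix genes. Over all genes tested 10.7% differed, so such a count is not particular to the lists. The difference on the log2 scale, day 3 minus day 1, was -2.31 for Mmp25, 0.79 for Furin, the proprotein convertase that activates Mmp14, 1.15 for Lrp1, 1.26 for Adam15 and 1.77 for Fn1. The Lrp1 value missed the threshold without library 1, 3 or 5 of D1 AP+Lac, 1, 2 or 4 of D1 AP+PBS, 1, 2 or 3 of D3 AP+Lac, or 1, 2 or 4 of D3 AP+PBS (1.01 to 1.18, limma adjusted p 0.051 to 0.081). Furin missed it without library 1 or 2 of D3 AP+Lac or 2 of D3 AP+PBS (0.71 to 0.78, limma adjusted p 0.052 to 0.053), and Fn1 without library 1 of D3 AP+Lac or 2 of D3 AP+PBS (1.49 to 1.52, limma adjusted p 0.051 to 0.056). Mmp25 and Adam15 stayed past it without any 1 library.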

How the results depend on the processing

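Of the 27 called values of the 10 members, all kept their direction when any 1 library was left out, and 20 stayed past the threshold each time. The number of members called at day 0 against NC was 9 in each such fit, 6 to 7 for D1 AP+PBS against D0, 1 to 5 for D3 AP+PBS against D1 AP+PBS, 4 to 6 for D3 AP+PBS against NC, 0 to 2 for lactate at day 1, 0 at day 3 and 0 to 2 for the difference between days. In these fits the share of all genes called was 51.7% to 59.2%, 58.8% to 63.1%, 25.1% to 39.0% and 9.93% to 19.5% in the first 4 comparisons. For lactate at day 1, at day 3 and the difference between days it was 1.6% to 19.9%, 0% to 1.36% and 5.2% to 18.9%. Lactate at day 1 gave 0 called without a filter on low values (2.43% of all genes) and 0 with only the compared groups fitted (0%). It gave 3 over libraries 1 to 4 (28.6%), a restriction chosen after seeing the data. The difference between days gave 1 with quantile normalization (12.9%) and 2 over day 1 libraries 1 to 4 (28.5%). Timp3 in D1 AP+PBS against D0 turned to -0.033 with quantile normalization, and the cause was not tested. Levels under 1 FPKM, as of Mmp12 and Mmp13 in most libraries outside NC, limit what their fold changes can show.

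Same-numbered libraries of different groups did not all deviate together, and 3 of 12 libraries at day 1 and 1 of 8 at day 3 were most like the one with their own number. With the replicate number as a block, the counts called were 9, 8, 2, 7, 1, 0 and 0 in the order of comparisons above. The shares over all genes were then 59.4%, 64.3%, 28.9%, 23.1%, 10.9%, 1.02% and 11.7%. For D3 AP+PBS against D1 AP+PBS, Mmp19 (limma adjusted p = 0.069) and Timp3 (0.084) were then not called and Timp1 was (0.039), and Timp3 was called for D1 AP+PBS against D0 (0.046).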
